A study of Rattus norvegicus with 4 samples.

Results

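Adipocyte nuclei in which no Ucp1 transcript was counted, called Ucp1-0 nuclei here, were described in 4 single-nucleus RNA libraries of rat fat. A barcode was gated as an adipocyte nucleus when it held at least 2000 unique molecular identifiers (UMIs, each a counted RNA molecule) and at least 5 UMIs over Adipoq, Plin1, Lipe, Pparg, Cidec and Acsl1. It also had to hold 0 UMIs over Cyyr1, Ptprb, Pdgfra, Ptprc, Myh11, Cdh19 and Mki67, which mark endothelial, fibroblast, immune, smooth muscle, Schwann and dividing cells. Of 125904 deposited barcodes, 68378 passed this gate, and 8224 of those held 0 UMIs of Ucp1. The other 60154 held at least 1 Ucp1 UMI and are called Ucp1-positive.

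The tissues were thoracic aorta perivascular adipose tissue (taPVAT) and subscapular brown adipose tissue (BAT), with 2 libraries each. All came from naive male Dahl salt-sensitive rats (strain SS/HsdMcwiCrl) aged 16 weeks, with no treatment in any group. About 50 mg of frozen tissue per sample was used, with a target of 10000 nuclei on the 10x Genomics 3' kit version 3.1. The series describes 2 rats per tissue but does not say whether a rat gave both tissues, and names no day or batch, so p-values measure the spread between these 4 libraries, part of which may be technical.

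Brown adipocytes burn fatty acids to make heat, and the uncoupling protein Ucp1 in their mitochondria lets protons return to the matrix without making ATP. White adipocytes store lipid, release leptin and hold little or no Ucp1. Fat around the thoracic aorta of rodents is brown-like, and it releases factors that act on the vessel wall.

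The libraries held 63654436 to 158140959 UMIs in 14765 to 44637 barcodes, and every deposited barcode had at least 500 UMIs. At 2000 UMIs or more, nearly all barcodes met the adipocyte arm of the gate (10493 of 10807 in taPVAT replicate 2, the lowest share), so membership was set mostly by the 7 genes of other cells. The single nuclear transcript AC134224.3 took 12.7% to 14.1% of UMIs in each library. Barcode sequences shared between library pairs numbered 126 to 424, and 0 to 4 of them were Ucp1-0 nuclei in both libraries of a pair. BAT replicate 1 stood apart from the other libraries in the makeup of its Ucp1-0 nuclei, described below, and counts of called genes and the brown and white fat lists are also given without it. Where a gene has 2 values for a tissue they are its replicates 1 and 2, and where it has 4 they are the taPVAT and then the BAT replicates, in that order.

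Ucp1-0 nuclei were 9.03% of gated nuclei in taPVAT replicate 1 (2057 nuclei, 95% Wilson interval 8.66% to 9.41%) and 21.4% in taPVAT replicate 2 (1828 nuclei, 20.6% to 22.3%). They were 4.73% in BAT replicate 1 (1059 nuclei, 4.46% to 5.02%) and 22.4% in BAT replicate 2 (3280 nuclei, 21.7% to 23.0%). The intervals cover counting error only. Both tissues had a low replicate 1 and a high replicate 2, so the tissues overlapped, with means of 15.2% ± 8.78 (SD, n = 2) in taPVAT and 13.5% ± 12.5 (SD, n = 2) in BAT. The tissue difference of 1.69 percentage points was below the spread between replicates, and without BAT replicate 1 it was -7.12. At an equal depth of 2000 UMIs, described next, it was 10.2 points, and the thinned shares of the tissues overlapped as well.

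The share without Ucp1 was lower at higher depth in every library. From nuclei of 2000 to 3000 UMIs to nuclei of 10000 or more, it went from 16.0% to 0.180% and from 43.3% to 5.03% in the taPVAT replicates and from 12.3% to 0.193% and from 29.6% to 0.917% in the BAT replicates. With every gated nucleus thinned to 2000 UMIs the shares were 21.6%, 47.9%, 12.1% and 36.9% in the same order. If every gated nucleus drew Ucp1 at the single rate of its library, 4.65%, 12.9%, 0.627% and 12.9% would hold 0 Ucp1 UMIs. The observed shares were 9.03%, 21.4%, 4.73% and 22.4%, and the part of sampling in them was not tested. Ucp1-0 nuclei had a median of 2819 and 4240.5 UMIs in the taPVAT replicates and 2883 and 2840.5 UMIs in the BAT replicates. The plot of the share by depth shows this decline in each library.

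**Figure D1:**
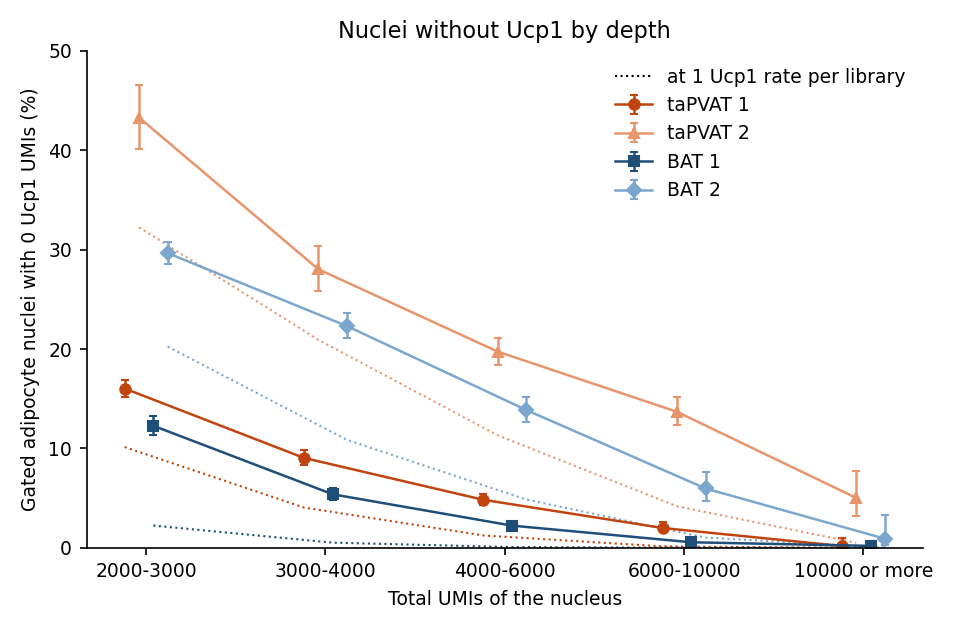
Percent of gated adipocyte nuclei with 0 Ucp1 UMIs (y axis) by total UMIs of the nucleus (x axis), 1 line per library, with 95% Wilson bars that cover counting error only. Dotted lines give the share if every gated nucleus drew Ucp1 at the single rate of its library. The share goes from between 12.3% and 43.3% at 2000 to 3000 UMIs to between 0.180% and 5.03% at 10000 UMIs or more.

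Ucp1 UMIs were also counted in barcodes of cells that should lack the gene. Among endothelial nuclei, taken as barcodes of 2000 UMIs or more with at least 5 UMIs over Cyyr1 and Ptprb, 17.4% and 46.0% in taPVAT and 13.3% and 33.6% in BAT held 0 Ucp1 UMIs. Ucp1 stood at 692, 211, 1125 and 390.0 CPM (the UMIs of a gene scaled to a common total) in these endothelial nuclei, against 932, 447, 1537 and 649 CPM in gated adipocyte nuclei. Median depth was 4362, 3160, 4718 and 4207 UMIs in the endothelial nuclei and 3672, 4981, 4222 and 3200 UMIs in the gated nuclei. Thinned to 2000 UMIs, 34.1%, 64.0%, 24.0% and 55.4% of endothelial nuclei held 0 Ucp1 UMIs, above the thinned share of gated adipocyte nuclei in each library. The endothelial barcodes also held the adipocyte gate genes, at 7964 to 13592 CPM, and free RNA and doublets cannot be told apart here. A single Ucp1 UMI therefore does not show that a nucleus made the transcript, and the Ucp1-positive nuclei used for comparison include nuclei with 1 UMI.

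At the edges of the rule, nuclei with exactly 1 Ucp1 UMI numbered 3403 and 2110 in taPVAT and 1545 and 3707 in BAT, of similar depth to the Ucp1-0 nuclei (medians of 3076, 4757, 3052 and 2989 UMIs). Just outside the adipocyte arm, with 4 UMIs over its genes, were 0, 20, 8 and 10 barcodes, and just inside, with 5 UMIs, were 6, 27, 5 and 4. At the depth limit, 319, 56, 150 and 464 Ucp1-0 barcodes held 1800 to under 2000 UMIs, and 285, 60, 137 and 422 lay in a span of the same width above it.

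Each Ucp1-0 nucleus was paired within its library to a Ucp1-positive nucleus of nearly the same total, with a largest gap of 26 UMIs in any pair. The 6 adipocyte genes that chose both groups are given as a description, since they are part of the rule. Together they held a median of 46.0 UMIs per Ucp1-0 nucleus and 46.25 per matched nucleus on the mean of the libraries. Adiponectin (Adipoq) stood at 380.3 and 263 CPM in taPVAT and 589 and 298 CPM in BAT Ucp1-0 nuclei. In the matched nuclei it stood at 328, 243, 423 and 265 CPM, lower in each library. Perilipin Plin1, which coats the lipid droplet, stood at 2043, 1475, 2926 and 1494 CPM against 2106, 1448, 2746 and 1455 CPM. The gate requires UMIs of these genes in every nucleus, and their levels were lower in a small set rich in fibroblast transcripts described below. A list of adipocyte identity genes outside the gate summed to 15645, 16042, 17401 and 17140 CPM in Ucp1-0 nuclei. In matched nuclei it summed to 16000, 16106, 17103 and 16976 CPM. The median mitochondrial share of UMIs differed by 0.268 percentage points ± 0.306 (SD, n = 4), higher in Ucp1-0 nuclei in 3 of 4 libraries (exact paired permutation test, two-sided p = 0.25, where 0.13 is about the smallest that 4 pairs allow). No doublets were removed for the main values. Scrublet, a doublet caller, marked 10.5% and 5.80% of taPVAT Ucp1-0 nuclei and 15.2% in BAT replicate 2, against 11.8%, 6.29% and 18.1% of matched nuclei. It marked 0 barcodes in BAT replicate 1, where its threshold did not work.

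Counts were summed over the Ucp1-0 nuclei and over the matched nuclei of each library and tested with edgeR with library as a term. Of 11461 genes tested, 459 rose in Ucp1-0 nuclei and 103 fell at an adjusted p under 0.05, 562 in all or 4.90% of genes (4.0% up and 0.899% down). DESeq2 called 3.23% (2.70% up and 0.532% down). Over all tested genes 18.5% were higher and 11.5% lower in all 4 libraries. The 14 genes of the rule were not tested. Genes that rose were 81.7% of those called, against 71.1% under another scaling (RLE size factors, 460 up and 187 down) and 63.2% with no filter on low counts. Leaving out BAT replicate 1 gave 1072 calls (9.17%), of which 625 rose (5.35%) and 447 fell (3.83%). Leaving out BAT replicate 2 gave 395 (3.51%), with 336 up (2.99%) and 59 down (0.524%). Leaving out taPVAT replicate 1 gave 207 (1.79%), with 199 up (1.72%) and 8 down (0.0692%), and taPVAT replicate 2 167 (1.48%), with 162 up (1.44%) and 5 down (0.0443%). Of the 12 genes with the largest rises and the 12 with the largest falls, chosen by a rule given under the processing, 12 and 11 were also called by DESeq2. That rule took only genes with 1 direction in all 4 libraries, so such agreement in them was set by the choice. All 12 rises passed with any 1 library left out, except 1 of them without taPVAT replicate 1. With 3 kinds of nuclei described below left out, 2 of the 10 rises still tested passed (Clmp and Abi3bp) and 8 of the 12 falls did, and without the Kcnip1, Tshr and Ca3 nuclei alone 7 of 10 rises and 9 of 12 falls did. Of the 12 falls, 4 passed when taPVAT replicate 1 was left out and 3 when taPVAT replicate 2 was, 12 when BAT replicate 1 was and 11 when BAT replicate 2 was.

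Kcnip1, Tshr and Ca3, whose summed UMIs are used below to sort nuclei, were higher in Ucp1-0 nuclei. Kcnip1, a calcium-binding subunit of voltage-gated potassium channels, stood at 382 and 336 CPM in taPVAT and 1560.2 and 427 CPM in BAT Ucp1-0 nuclei. Its levels in matched nuclei were 102, 145, 261 and 143 CPM. All Ucp1-0 values lay above all matched values, with BAT replicate 1 far above the rest, and Kcnip1 rose by 1.77 ± 0.16 (log2, SE) in edgeR's quasi-likelihood test with a Benjamini-Hochberg adjusted p of 0.00072. Tshr, the thyrotropin receptor, rose by 1.24 ± 0.18 (log2, SE; edgeR adjusted p = 0.00311), from 70.4 to 140.0 CPM in matched nuclei to 154 to 425 CPM. Ca3, a carbonic anhydrase abundant in white adipocytes, rose by 1.27 ± 0.18 (log2, SE; edgeR adjusted p = 0.00309), from 123 to 258 CPM to 239.9 to 1245 CPM. These 3 genes were chosen because earlier results of the same libraries showed this, so their rise is a description and no independent evidence.

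Clmp, Kcnn3 and Kif26b were also higher in Ucp1-0 nuclei. Clmp, an adhesion molecule of the immunoglobulin family, stood at 179 and 147 CPM in taPVAT and 369 and 113 CPM in BAT Ucp1-0 nuclei, against 50.5, 57.6, 42.4 and 39.5 CPM in matched nuclei. The groups did not overlap, and Clmp rose by 1.83 ± 0.20 (log2, SE; edgeR adjusted p = 0.00129). Kcnn3, a calcium-activated potassium channel, stood at 69.0, 65.3, 208 and 64.7 CPM against 18.7, 25.1, 32.9 and 22.3 CPM, again with no overlap, and rose by 1.78 ± 0.15 (log2, SE; edgeR adjusted p = 0.00072). Kif26b, a kinesin family member, had the largest fold among the named genes at 2.03 ± 0.33 (log2, SE; edgeR adjusted p = 0.00736), but its level of 123 CPM in BAT replicate 1 contrasted with 32.1, 7.12 and 6.68 CPM in the other libraries. Without BAT replicate 1 its log2 change was 1.29.

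Fgf10, Igf1 and Grb10 were also higher in Ucp1-0 nuclei. Fgf10, a fibroblast growth factor that drives preadipocyte growth, stood at 30.1, 20.6, 68.2 and 16.2 CPM in Ucp1-0 nuclei, against 6.88 to 9.68 CPM in matched nuclei, and rose by 1.74 ± 0.20 (log2, SE; edgeR adjusted p = 0.00137). Igf1, the insulin-like growth factor, stood at 147, 158, 258 and 138 CPM against 103, 71.8, 66.5 and 60.1 CPM and rose by 1.11 ± 0.16 (log2, SE; edgeR adjusted p = 0.00339). Grb10, an adaptor that dampens insulin and Igf1 receptor signalling, stood at 39.9, 39.7, 93.5 and 24.6 CPM against 12.1 to 17.2 CPM and rose by 1.45 ± 0.16 (log2, SE; edgeR adjusted p = 0.00137). None of these 3 genes had a library in which the matched nuclei were higher, which the rule of choice required of Fgf10 and Grb10. With the 3 kinds of nuclei left out none of them passed (log2 0.54 for Fgf10, 0.29 for Igf1 and 0.18 for Grb10), nor did Kcnn3 (0.72) or Kif26b (0.55). The other genes named among the 12 largest rises were Stac, Abi3bp, Anxa1, Otulinl, Astn2 and Cpq, with log2 changes of 1.57, 1.55, 1.5, 1.5, 1.49 and 1.48.

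**Figure D2:**
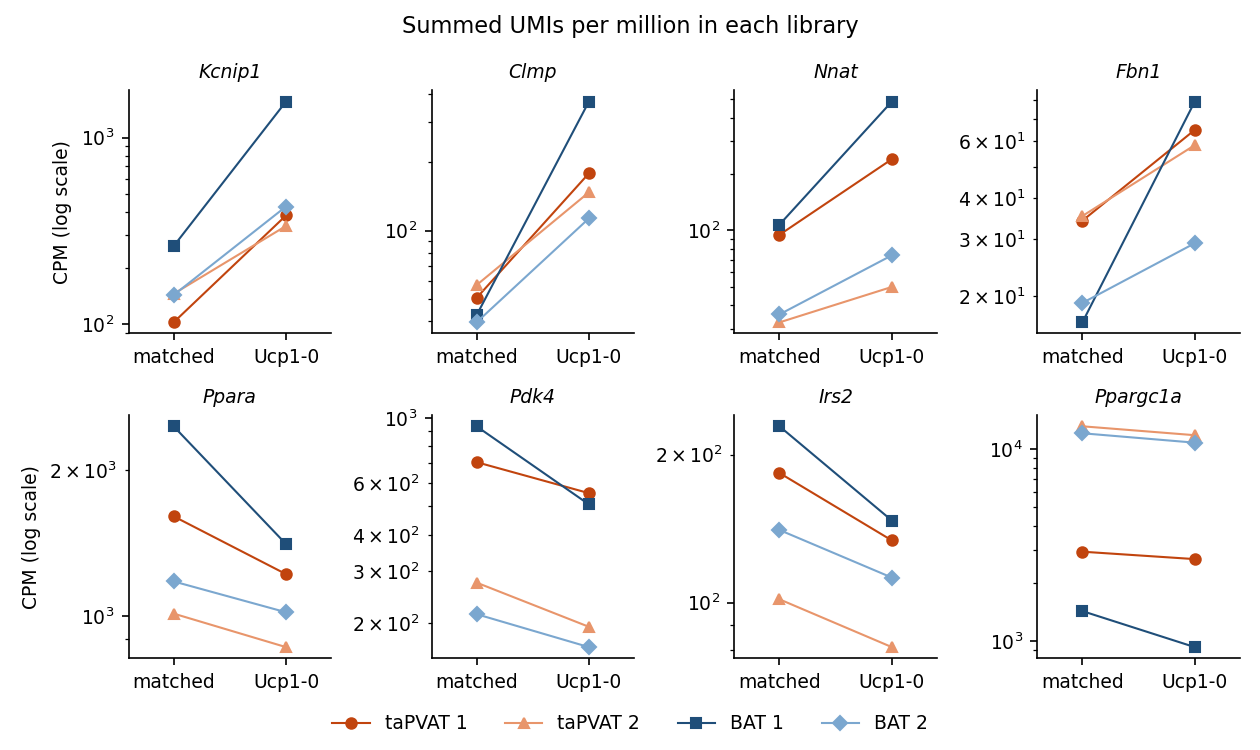
Level of 8 genes in CPM (log y axis) in matched Ucp1-positive nuclei and in Ucp1-0 nuclei, 1 line per library joining its 2 values. Kcnip1, Clmp, Nnat and Fbn1 are higher in Ucp1-0 nuclei in all 4 libraries, and Ppara, Pdk4, Irs2 and Ppargc1a are lower in all 4.

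Of 12 tested genes of a list associated with white fat, 6 rose and 0 fell, where 4.0% of all genes rose and 0.899% fell. The list's median log2 change was 0.56, against -0.02 over all genes tested. Nnat, a small membrane proteolipid of adipocytes and neurons, stood at 239.9 and 50.0 CPM in taPVAT and 487 and 73.7 CPM in BAT Ucp1-0 nuclei, against 94.8, 32.4, 107 and 35.7 CPM in matched nuclei. Its groups overlapped across libraries, since both replicate 1 libraries were high, but it was higher within each library and rose by 1.30 ± 0.18 (log2, SE; edgeR adjusted p = 0.00295). Nrip1, a corepressor of oxidative genes in fat, stood at 112, 155, 259 and 155 CPM against 64.5, 100.2, 84.9 and 97.3 CPM and rose by 0.85 ± 0.12 (log2, SE; edgeR adjusted p = 0.00348). Slc7a10 (1.41), Wt1 (1.26), Sncg (1.14) and Psat1 (0.54) also rose on the log2 scale. Wt1, which is also in the mesothelial marker list, had no UMI in the matched nuclei of BAT replicate 1. Leptin (Lep) was higher in 4 of 4 libraries, at 26.6, 75.7, 33.5 and 111 CPM against 9.98, 58.9, 8.90 and 89.2 CPM, but did not pass the test (log2 0.58 ± 0.17, SE; edgeR adjusted p = 0.0828). With BAT replicate 1 left out 7 of the 12 genes rose (5.35% of all genes did), Lep among them, 1 fell (Npr3) and the median was 0.42, and with taPVAT replicate 1 left out 3 of 11 rose (1.72% of all genes did). With the 3 kinds of nuclei left out 0 of 10 tested genes passed in edgeR, where 0.407% of all genes did. Of these 10 genes, 1 had an unadjusted p under 0.05 in edgeR, as did 995 of all 10798 genes tested.

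Of 27 tested genes of a brown fat list that leaves out Ucp1, 5 fell and 1 rose, where 0.899% of all genes fell and 4.0% rose. In this list 25 genes had a negative log2 change, and the median was -0.27, against -0.02 over all genes tested. Ppara, a nuclear receptor that turns on fatty acid oxidation, stood at 1221 and 864 CPM in taPVAT and 1407 and 1019 CPM in BAT Ucp1-0 nuclei, against 1605, 1013, 2458 and 1179 CPM in matched nuclei. It was lower within each library, as the rule of choice required, while the groups overlapped across libraries. Ppara fell by 0.45 on the log2 scale (SE 0.09, edgeR adjusted p = 0.0206). Fabp3, a fatty acid carrier of oxidative cells, stood at 313, 112, 194 and 52.3 CPM against 409.7, 130.1, 372 and 58.1 CPM and fell by 0.48 on the log2 scale (SE 0.11; edgeR adjusted p = 0.0397). In BAT replicate 1 the log2 ratio was -0.94 for Fabp3 and -0.80 for Ppara. In the other libraries it was -0.39 to -0.15 for Fabp3 and -0.40 to -0.21 for Ppara. None of the 5 falls in this list passed without taPVAT replicate 1 or without taPVAT replicate 2. With BAT replicate 1 left out 15 of 26 tested genes fell, where 3.83% of all genes did, 1 rose and the median was -0.17.

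Ucp3, a mitochondrial relative of Ucp1, fell by 0.37 on the log2 scale (edgeR adjusted p = 0.0409). Cpt1b, which loads fatty acids for entry into mitochondria, fell by 0.35 (edgeR adjusted p = 0.0326), and Esrrg, a nuclear receptor of oxidative metabolism, fell by 0.26 (edgeR adjusted p = 0.0464). With the 3 kinds of nuclei left out Ucp3, Cpt1b and Esrrg did not pass, where 0.407% of all genes did. The member that rose was S100b, a calcium-binding protein that brown adipocytes release toward nerves (log2 0.47 ± 0.10, SE; edgeR adjusted p = 0.0267), but without the Kcnip1, Tshr and Ca3 nuclei its log2 change was -0.0168. Ppargc1a, the coactivator of mitochondrial growth, stood at 2679.5, 11862, 931 and 10845 CPM in Ucp1-0 nuclei against 2929, 13201, 1435 and 12141 CPM. It was lower in 4 of 4 libraries and just missed the threshold (log2 -0.31 ± 0.08, SE; edgeR adjusted p = 0.051). Its levels split by replicate number more than by group, with both replicate 2 libraries high.

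Cidea, a lipid droplet protein of brown adipocytes, stood at 234, 245, 202 and 281 CPM against 276, 275, 366 and 303 CPM and did not pass (log2 -0.37 ± 0.11, SE; edgeR adjusted p = 0.0832). Prdm16, which sets brown identity, did not pass either (log2 -0.27 ± 0.09, SE; edgeR adjusted p = 0.11). Per nucleus, the brown list without Ucp1 took a median of 165 and 262 UMIs per 10000 in taPVAT and 94.2 and 256 in BAT Ucp1-0 nuclei, against 180 and 283 and 171 and 271 in matched nuclei. No Ucp1-0 nucleus lacked the list's UMIs altogether. The Ucp1-0 nuclei of BAT replicate 1 were the furthest below their matched nuclei.

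Against nuclei with at least 3 Ucp1 UMIs, so that nuclei with 1 or 2 UMIs were left out of the comparison group, 1283 genes were called (11.3% of 11388, 6.65% up and 4.62% down). Depth could not be matched here in the replicate 2 libraries, where the comparison nuclei had medians of 4683 (taPVAT) and 3131.5 UMIs (BAT) against 4240.5 and 2840.5 UMIs, and the part of that gap was not tested. Of the 27 brown list genes, 16 then fell and 1 rose, with a median log2 change of -0.35, and 11 genes of the fatty acid oxidation list fell.

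The lists that follow can be read against 4.0% of all tested genes that rose and 0.899% that fell. In the fatty acid oxidation list 1 of 23 tested genes fell (Cpt1b) and 0 rose, with 21 negative and a median log2 change of -0.19. All 29 tested nuclear genes of oxidative phosphorylation were negative, with a median of -0.11, and 0 passed edgeR's test or DESeq2, with 12 at an unadjusted p under 0.05 in edgeR, where 20.7% of all genes were. Cox4i1, a subunit of cytochrome c oxidase, stood at 537, 334, 590.1 and 549.6 CPM against 569, 347, 639 and 558 CPM. In creatine and calcium cycling 0 of 7 genes passed in edgeR or DESeq2, 5 had an unadjusted p under 0.05 in edgeR, and the median was -0.26. With BAT replicate 1 left out 11 of the 23 oxidation genes, 3 of the 29 oxidative phosphorylation genes and 2 of the 7 cycling genes fell, where 3.83% of all genes did.

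In de novo lipogenesis 2 of 19 genes rose, Scd and Srebf1 (log2 0.50 and 0.24), 0 fell and the median was 0.01. Without the Kcnip1, Tshr and Ca3 nuclei neither passed, with Srebf1 at -0.0219. Scd makes monounsaturated fatty acids and Srebf1 is a transcription factor for fatty acid synthesis. Acaca, which makes malonyl-CoA, stood at 3722, 3049, 1582 and 1197 CPM against 3439, 2762, 1959.9 and 1006 CPM, higher in 3 of 4 libraries and not past the test. In lipolysis and lipid droplet genes 1 of 15 rose (Plin4, 0.39) and 1 fell (Plin2, -0.36). In fatty acid uptake 2 of 12 fell, Fabp3 and Angptl4 (-0.24), the latter an inhibitor of lipoprotein lipase.

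In the insulin and glucose list 2 of 18 genes rose (Grb10 and Pik3r1) and 2 fell (Pdk4 and Irs2). Pdk4, the kinase that shuts pyruvate out of the citric acid cycle, stood at 555 and 194 CPM in taPVAT and 508 and 166 CPM in BAT Ucp1-0 nuclei, against 707, 275, 937 and 215 CPM in matched nuclei. Both replicate 2 libraries were low in both groups, and each library had less in Ucp1-0 nuclei, as the rule of choice required. Pdk4 fell by 0.57 on the log2 scale (SE 0.08, edgeR adjusted p = 0.00408). Irs2, an adaptor of the insulin receptor, stood at 134, 81.1, 147 and 112 CPM against 184, 102, 228 and 141 CPM and fell by 0.47 (SE 0.07; edgeR adjusted p = 0.00295).

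Ghr, the growth hormone receptor, stood at 1913, 1825, 3144 and 2369 CPM against 1559, 1519.9, 2014 and 2037 CPM and rose by 0.31 ± 0.06 (log2, SE; edgeR adjusted p = 0.0195). It belongs to the adipocyte identity list, in which 5 of 16 tested genes rose (Slc7a10, Tshr, Acvr1c, Plin4 and Ghr) and 1 fell (Pck1, -0.22), with a median of -0.09. With the 3 kinds of nuclei left out none of these 5 was called, where 0.407% of all genes were, and Pck1 was still called (-0.20). Tshr was not tested there, since it helped choose the nuclei left out. In adrenergic signalling 2 of 20 genes fell, among them the adenylyl cyclase Adcy9 (-0.33), and the other was Gnas, which is listed under more than 1 gene ID. Adrb3, the beta-adrenergic receptor of fat, stood at 165, 310.2, 256 and 333 CPM against 163, 329.7, 264 and 346 CPM and did not pass (log2 -0.09 ± 0.05, SE; edgeR adjusted p = 0.316). Among secreted factors 2 of 14 rose (Igf1, and Slit2 at 0.39) and 2 fell (Angptl4, and Vegfa at -0.28). Among adipogenic transcription factors 1 of 20 rose (Srebf1) and 2 fell (Cebpb, -0.27, and Tle3, -0.24), where 4.0% of all genes rose and 0.899% fell. Of 5 genes that separated the tissues in an earlier look at these libraries, 3 rose (Stk39, 0.78, Slit2 and Tbx15, 0.38) and 1 fell (Impdh1, -0.44). The remaining genes named among the 12 largest falls were LOC100363193, Noct, Syt1, Sdc4, Actn2, Trim67 and Col27a1, with log2 changes of -0.52, -0.51, -0.50, -0.50, -0.50, -0.48 and -0.45.

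**Figure D3:**
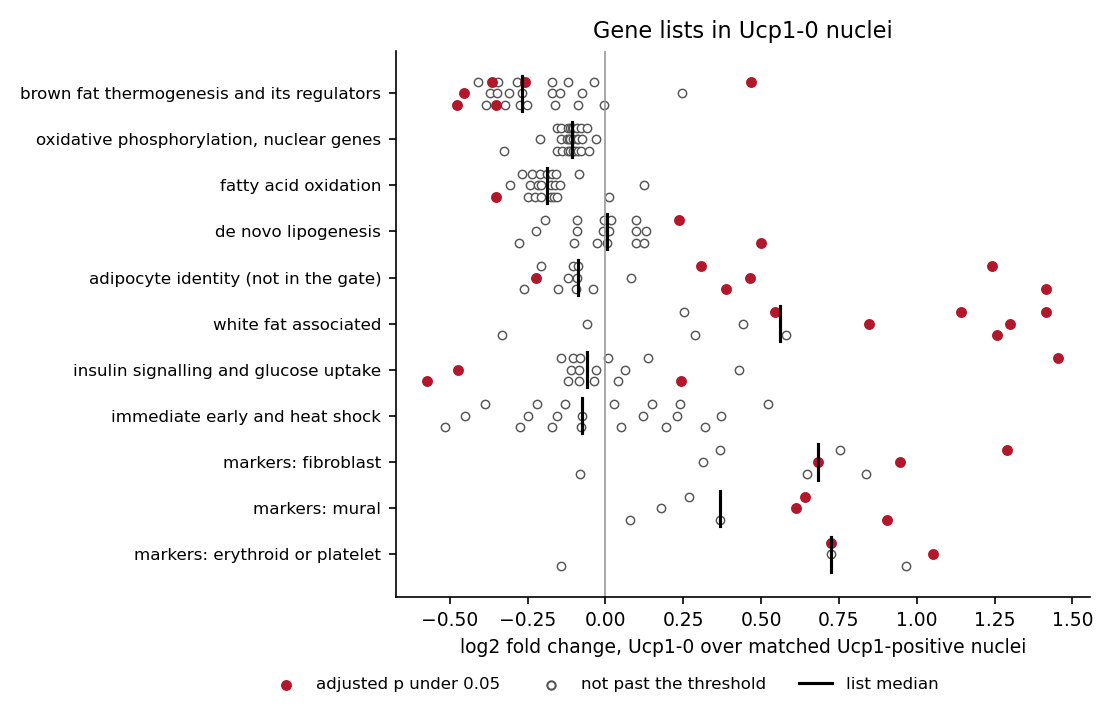
Log2 change of each tested gene, Ucp1-0 against matched Ucp1-positive nuclei (x axis), in 11 gene lists (rows), with genes past the adjusted p of 0.05 in red and a black bar at each list's median. The white fat list lies to the right with a median of 0.56, the brown fat list to the left with -0.27, and 29 of 29 oxidative phosphorylation genes lie left of 0.

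Some marker lists of other cells differed between the groups, where 4.0% of all genes rose and 0.899% fell. In the fibroblast list 3 of 9 tested genes rose (Fap, 1.29, Fbn1, 0.95, and Col3a1, 0.68), and its summed level was 163 to 299 CPM in Ucp1-0 and 123 to 166 CPM in matched nuclei. Fbn1, which encodes fibrillin of elastic fibres, stood at 64.8 and 58.2 CPM in taPVAT and 79.2 and 29.1 CPM in BAT Ucp1-0 nuclei, against 34.1, 35.2, 16.6 and 19.1 CPM. In the mural list 3 of 7 rose (Notch3, 0.90, Abcc9, 0.64, and Pdgfrb, 0.61), with sums of 56.5 to 122 CPM against 43.6 to 80.4 CPM and Cnn1 at 0 in both replicate 1 libraries. The erythroid and platelet list had 2 of 5 called (Hbb and Alas2), with sums of 327 and 4689 CPM in taPVAT and 102 and 1389 CPM in BAT Ucp1-0 nuclei, against 346, 1423, 136 and 541 CPM. The sums were higher in Ucp1-0 nuclei in both replicate 2 libraries and lower in both replicate 1 libraries, and Gp1bb was at 0 in both groups of every library, as was Ppbp except in the matched nuclei of BAT replicate 2.

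Reln was the 1 lymphatic gene of 2 tested that rose (1.85), higher in 3 of 4 libraries and lower in BAT replicate 2. The lymphatic list summed to 49.6 and 30.7 CPM in taPVAT and 2.37 and 4.62 CPM in BAT Ucp1-0 nuclei, against 34.9, 10.6, 2.67 and 6.19 CPM. Wt1 was the 1 mesothelial gene tested and rose, and in the neuron list Snap25 rose (1.05) and Syt1 fell. In the vascular endothelial (8 tested), myeloid (8), Schwann (4), mast cell (2), T or NK lymphocyte (1), B lymphocyte (1) and skeletal muscle (1) lists 0 genes were called by edgeR or DESeq2, with 1, 1, 3, 0, 0, 0 and 0 at an unadjusted p under 0.05 in edgeR. No proliferation gene was tested. The defining genes Pdgfra, Myh11, Ptprc, Cyyr1, Ptprb, Cdh19 and Mki67 were at 0 in both groups because the gate required it. Without BAT replicate 1, edgeR called 5 of 9 fibroblast, 4 of 5 erythroid and 1 of 8 vascular endothelial genes, all higher, where 5.35% of all genes were. Values with such nuclei left out are given below.

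Nuclei were sorted by cuts chosen after the data were seen, so their values are a description. Nuclei with at least 5 UMIs over Kcnip1, Tshr and Ca3 made up 16.6% and 18.1% of taPVAT Ucp1-0 nuclei and 47.0% and 14.5% of BAT Ucp1-0 nuclei (342, 330, 498 and 477 nuclei). Among matched nuclei they made up 5.25%, 8.86%, 8.88% and 6.19%. The share was higher in Ucp1-0 nuclei in 4 of 4 libraries, by 16.8 percentage points ± 14.3 (SD, n = 4). Earlier results of these libraries had shown the genes higher in Ucp1-0 nuclei, so this direction was set by their choice. BAT replicate 1 had the widest gap. Of the Ucp1-0 nuclei, 1.41% to 1.89% held exactly 4 such UMIs and 0.930% to 1.32% exactly 5, so few lay near the cut.

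Nuclei with fewer such UMIs but at least 3 UMIs over the fibroblast list made up 4.28% and 5.69% of Ucp1-0 nuclei in taPVAT and 6.42% and 2.38% in BAT (88, 104, 68 and 78 nuclei), against 3.06%, 2.74%, 2.36% and 1.55% of matched nuclei. That share was higher in 4 of 4 libraries by 2.26 percentage points ± 1.51 (SD, n = 4; exact paired permutation test, two-sided p = 0.13, about the smallest that 4 pairs allow). Here more nuclei lay near the cut, with 1.98% to 4.27% at 2 UMIs and 0.549% to 0.930% at 3. Nuclei of neither kind with at least 10 erythroid or platelet UMIs numbered 2, 29, 0 and 23 among Ucp1-0 nuclei and 2, 20, 1 and 17 among matched nuclei. The remaining nuclei were 79.0%, 74.7%, 46.6% and 82.4% of Ucp1-0 nuclei and 91.6%, 87.3%, 88.7% and 91.7% of matched nuclei, in the same order.

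**Figure D4:**
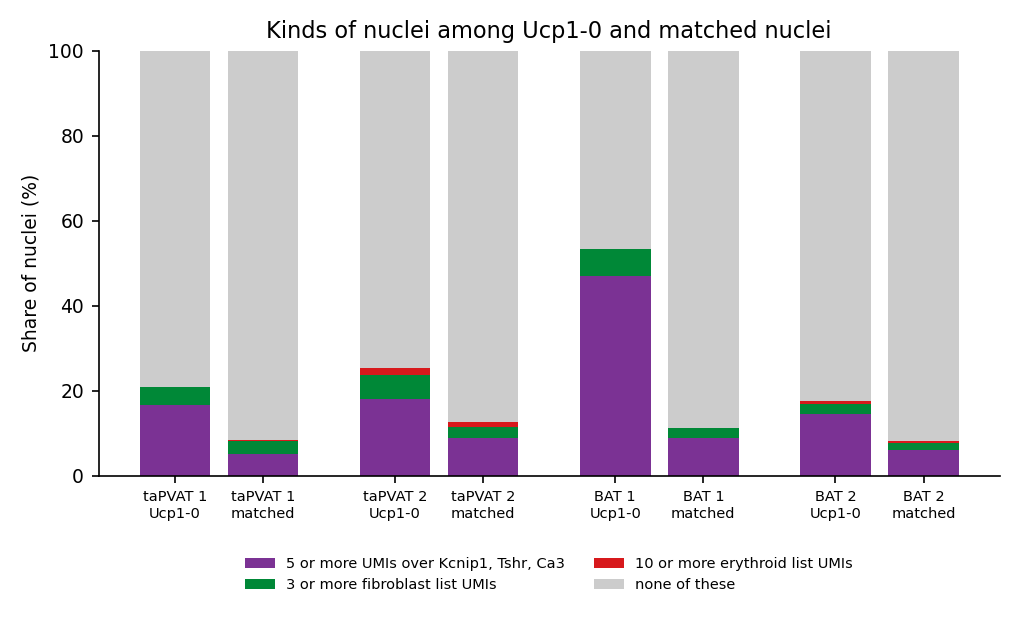
Percent of nuclei (y axis) of each kind in the Ucp1-0 and matched Ucp1-positive nuclei of each library (x axis). Nuclei with at least 5 UMIs over Kcnip1, Tshr and Ca3 take 14.5% to 47.0% of Ucp1-0 and 5.25% to 8.88% of matched nuclei, and those with fewer such UMIs and at least 3 fibroblast list UMIs take 2.38% to 6.42% and 1.55% to 3.06%.

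The kinds differed in what they expressed. Ucp1-0 nuclei with at least 5 Kcnip1, Tshr and Ca3 UMIs held the adipocyte gate genes at 14789 to 16577 CPM, close to the 13547 to 16165 CPM of all gated nuclei, themselves included. On means over the 4 libraries, Clmp stood at 802 CPM in them and 20.4 CPM in the remaining Ucp1-0 nuclei, Kcnn3 at 382 and 14.0 CPM, Nnat at 749.7 and 24.3 CPM, and Lep at 180.4 and 34.8 CPM. Ppara stood at 471 and 1467 CPM, Ppargc1a at 2784 and 7561 CPM, and Pdk4 at 139 and 476 CPM. In Ucp1-positive nuclei divided the same way Clmp stood at 553 and 7.68 CPM and Ppara at 727 and 1648 CPM.

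Across all gated nuclei, those with at least 5 such UMIs lacked Ucp1 in 21.2% and 38.0% of nuclei in taPVAT and 22.6% and 35.9% in BAT, against 8.10%, 19.6%, 2.78% and 21.0% of the others. Thinned to 2000 UMIs the shares were 38.3%, 61.8%, 35.5% and 53.1% against 20.8%, 46.4%, 9.66% and 35.0%. Ucp1 was counted in them at 632, 277, 916 and 424 CPM, against 957, 465, 1605 and 677 CPM in the others.

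Ucp1-0 nuclei rich in the fibroblast list held the gate genes at 7525, 7601, 4095 and 10190.2 CPM, below the remaining Ucp1-0 nuclei (12867 to 15893 CPM), with a median of 9 to 18.5 gate UMIs per nucleus. Fbn1 stood at 1092 CPM in them on the mean of 4 libraries, Col3a1 at 1282 CPM and Lama2 at 1829 CPM, against 11.2, 20.9 and 21.2 CPM in the remaining nuclei. Fbn1 and Col3a1 belong to the list that chose these nuclei, so their levels are a description, and Pdgfra was at 0 by the gate. Whether these barcodes are fibroblasts, doublets or adipocyte nuclei with free RNA was not tested. Several of the genes that rose were at their highest there, including Cpq (441 CPM), Grb10 (355 CPM), Abi3bp (695 CPM) and Igf1 (702 CPM), against 11.1, 7.19, 14.3 and 54.2 CPM in the remaining nuclei.

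With the 3 kinds left out of both groups and the rest matched again, 27 genes rose and 17 fell, 44 of 10798 tested or 0.407% (0.25% up and 0.157% down), and 36 of them had been called in the same direction over all nuclei. Leaving out only the Kcnip1, Tshr and Ca3 nuclei gave 299 calls (2.69% of 11108), only the fibroblast list nuclei 338 (3.02% of 11199) and only the erythroid list nuclei 633 (5.53% of 11446). Of the 459 genes that rose over all nuclei, 397 were tested in the remaining nuclei, 366 kept a positive sign, 386 had a smaller log2 change there, and their median went from 0.81 to 0.26. Of the 103 that fell, all 103 were tested, 103 kept a negative sign, 103 were smaller, and the median went from -0.32 to -0.15.

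The white fat list had none of its genes called by edgeR in the remaining nuclei, where 0.407% of all genes were. Its median log2 change there was 0.04, with Nnat at 0.02. The brown list had 3 of 27 called (Fabp3, Ppara and Gk), all lower, where 0.157% of all genes were. Its median was -0.07, against -0.0019 over all genes tested. Clmp was still higher in the remaining Ucp1-0 nuclei, at 15.9 and 13.3 CPM in taPVAT and 33.4 and 19.0 CPM in BAT against 12.5, 7.09, 3.58 and 7.84 CPM, with no overlap of the groups, and rose by 1.06 ± 0.18 (log2, SE; edgeR adjusted p = 0.00264). Nuclei just under the cuts stayed in, and their part in this value was not tested.

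Among the 17 genes that fell in the remaining nuclei were 7 named here after their values were seen. Pdk4 stood at 627 and 224 CPM in taPVAT and 865 and 187 CPM in BAT against 726, 305, 1053 and 216 CPM, lower in each library, and fell by 0.30 on the log2 scale (SE 0.03; edgeR adjusted p = 2.94e-05). Irs2 fell by 0.31 (edgeR adjusted p = 0.000212), Fabp3 by 0.27 (0.00407 by the same edgeR test), Pck1 by 0.20 (0.000724), Ppara by 0.19 (0.000685), Plin2 by 0.19 (0.0264) and Gk, glycerol kinase, by 0.13 (0.029). Pck1 is the enzyme that feeds glycerol synthesis in fat, and Plin2 coats lipid droplets.

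In the remaining nuclei 11 of 19 tested genes of the de novo lipogenesis list were positive, with a median of 0.01. There 3 of the 19 rose and 0 fell, where 0.25% of all genes rose and 0.157% fell. The 3 were Acly, Acaca and Me1, which supply acetyl-CoA, malonyl-CoA and NADPH, while Scd (0.17) and Srebf1 (0.03) did not pass there. Acly stood at 1070.0 and 1524 CPM in taPVAT and 764 and 644 CPM in BAT, against 929 and 1313 and 722 and 569 CPM, higher in each library, and rose by 0.16 ± 0.03 (log2, SE; edgeR adjusted p = 0.00264). Acaca rose by 0.14 ± 0.03 (edgeR adjusted p = 0.0223) and Me1 by 0.16 ± 0.04 (edgeR adjusted p = 0.0366), the latter higher in 3 of 4 libraries. None of these 3 passed over all nuclei, where the log2 changes were 0.13 for Acly, 0.01 for Acaca and 0.13 for Me1.

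**Figure D5:**
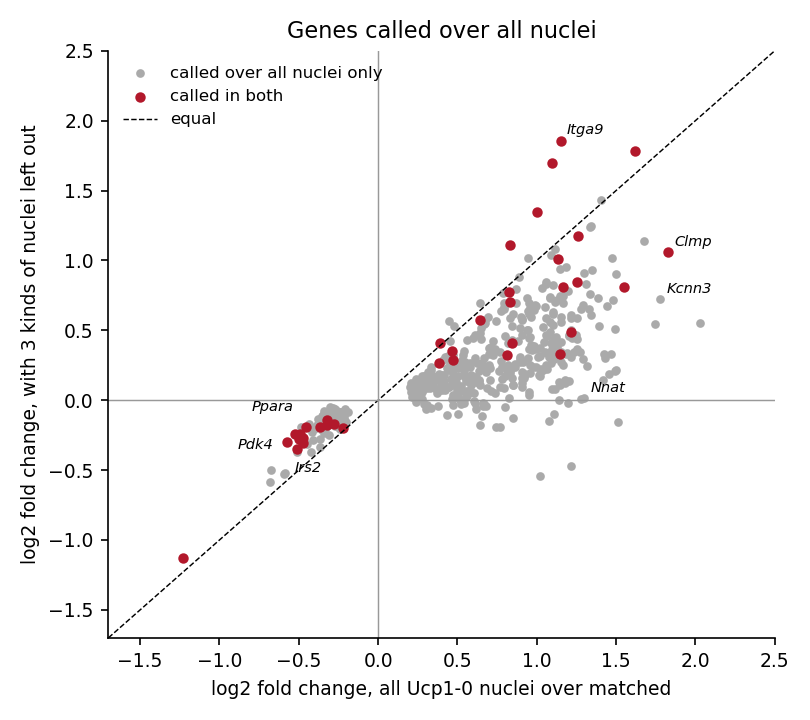
Log2 change of called genes over all Ucp1-0 and matched nuclei (x axis) and with the 3 kinds of nuclei left out (y axis), with the 36 genes called in both in red and a dashed line of equal change. Most genes that rose lie below the line, with a median of 0.81 over all nuclei and 0.26 in the remaining nuclei, while Irs2, Pdk4 and Ppara are negative on both axes.

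The Ucp1-0 nuclei of the 2 tissues were compared directly, 2 libraries against 2. Of 11747 genes tested with edgeR, 0 passed (0.00%), 322 had an unadjusted p under 0.05 (2.74%), and the smallest adjusted p was 0.525. DESeq2 called 39 (0.332%), 9 of the 12 genes named by rule among them. Leaving out 1 library at a time, edgeR called 31 and 27 for the taPVAT replicates and 108 and 167 for the BAT replicates, fits in which the lone library was assumed to vary like the others. Values below are therefore given as levels.

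Slit2, a secreted guidance protein, stood at 96.3 and 94.3 CPM in taPVAT and at 15.4 and 20.04 CPM in BAT Ucp1-0 nuclei (log2 2.39 ± 0.31, SE; edgeR adjusted p = 0.525). Acsl5, which activates fatty acids, stood at 1201 and 1105 CPM against 350.1 and 264 CPM (log2 1.92 ± 0.27, SE; edgeR adjusted p = 0.545). Rims2, a synaptic scaffold protein, stood at 73.0 and 61.0 CPM against 14.8 and 13.2 CPM (log2 2.25 ± 0.26, SE; edgeR adjusted p = 0.525). In each of these the 2 tissues did not overlap, as was the case for 23.3% of all tested genes. They were chosen for a small p and the same direction in both replicate numbers, so this is a description. Slit2, and Impdh1 and Tbx15 below, had separated the tissues in an earlier look at these libraries. Vat1l, Ednrb and Pkhd1l1 were the other 3 named as higher in taPVAT, with log2 differences of 2.31, 2.51 and 2.22.

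Toward BAT, Impdh1, an enzyme of guanine nucleotide synthesis, stood at 32.6 and 26.9 CPM in taPVAT and 101 and 87.8 CPM in BAT (log2 -1.67 ± 0.25, SE; edgeR adjusted p = 0.558). Tbx15, a T-box transcription factor, stood at 10.4 and 4.23 CPM against 71.8 and 23.5 CPM (log2 -2.66 ± 0.63, SE; edgeR adjusted p = 1). Dclk3, Clu, Adcy9 and Ces1d had log2 differences of -1.97, -1.18, -1.0 and -0.92. In the Ucp1-positive nuclei of the same libraries Impdh1 stood at 49.9, 34.4, 163 and 91.1 CPM and Tbx15 at 7.68, 3.50, 51.9 and 17.4 CPM, so the order of the tissues was the same with and without Ucp1. DESeq2 called Slit2 (adjusted p = 2.83e-05), Rims2 (6.95e-05), Acsl5 (0.000137), Tbx15 (0.00342) and Impdh1 (0.00835).

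The list counts that follow can be read against 2.74% of all genes tested at an unadjusted p under 0.05 in edgeR. De novo lipogenesis had 7 of 20 genes at such a p. In that list 16 were positive, with a median log2 difference of 0.69, against -0.03 over all genes tested. Acaca stood at 3722 and 3049 CPM in taPVAT and 1582 and 1197 CPM in BAT, and Gpam, the first enzyme of triglyceride synthesis, at 1109 and 891 CPM against 447 and 330.2 CPM. The brown list had a median of 0.08 with 2 of 27 at an unadjusted p under 0.05. The lymphatic endothelial markers had 5 of 5 at an unadjusted p under 0.05, with Reln at 9.37 and 9.42 CPM in taPVAT and 0.890 and 0.590 CPM in BAT and Ccl21 at 24.4 and 11.8 CPM against 1.19 and 2.16 CPM. The part of free lymphatic RNA in the tissue values was not tested.

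Whether the Ucp1-0 difference itself was unequal in the tissues was tested as an interaction. Of 12135 genes, 0 passed in edgeR (0.00%), 271 had an unadjusted p under 0.05 (2.23%), while 0 were called by DESeq2, where 21 had such a p. Without BAT replicate 1 edgeR called 21, Aox3 among them, and without BAT replicate 2 it called 339, fits in which the single BAT library was assumed to vary like the others. Aox3, an aldehyde oxidase, had the smallest p. It stood at 221 and 213 CPM in taPVAT and 185 and 126 CPM in BAT Ucp1-0 nuclei, against 143, 123, 47.2 and 43.4 CPM in matched nuclei, higher without Ucp1 in each library, with a log2 difference between tissues of -0.99 ± 0.15 (SE; edgeR adjusted p = 0.992). It was called by edgeR at 4000 UMIs or more (adjusted p = 0.00254) and with the 3 kinds of nuclei left out (adjusted p = 0.00306). Gpm6a (0.68), Hba-a3 (1.16) and Aspg (0.80) had positive and Agt (-0.56) and Clmn (-0.79) negative differences, and Hba-a3 is uncertain because its copies are nearly identical. Hba-a3 was called at 5% mitochondrial UMIs or less (log2 6.50; edgeR adjusted p = 0.000169). Without BAT replicate 1 the differences were 0.58 for Gpm6a, 1.15 for Hba-a3 and -0.40 for Agt. In the brown list 25 of 27 genes were positive with a median of 0.21, against 0.01 over all genes tested. A positive value here is a log2 change that was higher in taPVAT than in BAT. The 2 BAT libraries differed in this, with Gk, for example, at 985 against 1807 CPM in BAT replicate 1 and 3431 against 3865 CPM in BAT replicate 2. With BAT replicate 1 left out the brown list median was -0.04, with 9 of 27 positive, so the sign of the list's median rests on that library.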

How the data were processed

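Nuclear RNA of 4 libraries was analysed, 2 from taPVAT and 2 from BAT, grouped by the tissue in the labels. The deposited matrices hold raw counts of UMIs per barcode for 32883 genes, made with Cell Ranger 7.1.0 per the file headers on the rat build Rnor_6.0 per the submitters' processing notes. The annotation release and intron handling were not stated in the sources used here, so overlapping genes and near-identical copies (the globins, for example) are uncertain. No coordinates or sequences are printed.

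Counts were summed per library and group, scaled by TMM after edgeR's filter on low counts, and tested with edgeR 4.0.16 in R 4.3.3 (quasi-likelihood, Benjamini-Hochberg over all tested genes, threshold 0.05). Library was a term for Ucp1-0 against matched nuclei, where both groups come from the same library. Tissues were compared over 2 and 2 libraries, and the interaction used both. Levels are CPM of the summed UMIs, compared within a gene. Members and gene lists (16 lists and 14 marker lists, 371 of 382 genes in the files) were chosen with earlier results of these data known. Named genes were the 12 largest log2 changes each way among called genes with 1 direction in 4 libraries and at least 20 CPM, the 6 smallest p each way between tissues and 3 each way for the interaction, plus list members by level and those past the threshold. Genes named in the remaining nuclei were chosen after their values were seen.

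The alternatives were DESeq2 1.42.0, RLE size factors, no filter, each library left out, at least 4000 UMIs, at least 10 gate UMIs, Scrublet (scanpy 1.11.5) calls removed, at most 5% mitochondrial UMIs, other matchings, and the kinds of nuclei left out. Scrublet called none in BAT replicate 1, where the highest scores, 18.5% of barcodes, were removed instead. The fits were tested on simulated data with known changes and a fixed spread that was not taken from these libraries. False calls were 6.54% of calls for Ucp1-0 against Ucp1-positive nuclei, 3.865% between tissues and 2.703% for the interaction. Of log2 changes of 1, 100%, 99% and 80% were recovered in the same order. The depth was 63654436 to 158140959 UMIs per library.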

Additional observations from a re-analysis of the deposited data

Results flagged for a closer look

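Among 71 values with 1 reading per library, 6 had a library far from the others by Dixon's limit for 4 values at 95%, where chance alone flags about 1 in 20 groups, and all 6 were BAT replicate 1. Its share of nuclei with at least 5 Kcnip1, Tshr and Ca3 UMIs was 38.1 percentage points higher in Ucp1-0 than in matched nuclei, and its share of remaining nuclei differed by -42.1 points. The log2 ratio of Ucp1-0 to matched nuclei there was 2.44 for Abi3bp, 2.46 for Otulinl, 1.98 for Sncg and -1.10 for Trim67. Without that library the difference in Kcnip1, Tshr and Ca3 nuclei lay between 8.35 and 11.4 points.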

How the results depend on the processing

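Calls of Ucp1-0 against matched nuclei (562) numbered 370 with DESeq2, 169 at 4000 UMIs or more, 355 at 10 gate UMIs or more, 45 at 5% mitochondrial UMIs or less, 1031 with no matching and 1283 against nuclei of at least 3 Ucp1 UMIs (depth not matched in the replicate 2 libraries). They ranged from 167 to 1072 with 1 library left out. With alternatives chosen after the data were seen they were 299 without Kcnip1, Tshr and Ca3 nuclei, 338 without fibroblast list nuclei and 44 with all 3 kinds left out. With no replicate block, that is no library term, 0 were called and 412 had an unadjusted p under 0.05.

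Between tissues 0 genes were called by edgeR and 39 by DESeq2. EdgeR called 124 with no filter, 27 to 167 with 1 library left out, and 48 with a replicate block, among them Slit2, Rims2, Acsl5, Impdh1 and Tbx15. Replicate numbers do not pair the samples by the labels; deviations of same-numbered libraries correlated at 0.787 over 5972 genes. The interaction had 0 to 339 calls with 1 library left out (21 without BAT replicate 1), 3 at 4000 UMIs or more, 8 at 5% mitochondrial UMIs or less and 3 with all 3 kinds left out. Fewer nuclei entered the stricter settings, and the cause of each change in calls was not tested.

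For named genes, 801 values over the alternatives kept direction and side of the threshold for Ucp1-0 against matched nuclei, 354 lost the call and 5 reversed. Without Kcnip1, Tshr and Ca3 nuclei S100b was at -0.0168, Nnat at -0.0424 and Srebf1 at -0.0219 (log2). At 5% mitochondrial UMIs or less Syt1 was at 0.0839, Tbx15 at -0.3037 and the interaction of Agt at 0.3065. Shallow nuclei limit the split by Ucp1 itself, since a count of 0 at 2000 UMIs allows a level of up to 3 counts. The tissue difference in the share without Ucp1 moved by less than 1 SD under every alternative run, though its sign turned without BAT replicate 1 (-7.12 points) or taPVAT replicate 2 (-4.51). The mitochondrial difference was 0.268 points, 1.62 with no matching and -0.0778 at 5% mitochondrial UMIs or less, where its sign turned. It moved by less than 1 SD under the others.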

Other observations

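Of 21 tested immediate early and heat shock genes, 0 were called by edgeR, with 7 at an unadjusted p under 0.05 (20.7% of all genes had one), and DESeq2 called 1, Nr4a3, lower in Ucp1-0 nuclei. Nr4a1, an orphan nuclear receptor, stood at 44.7 and 171 CPM in taPVAT and 27.0 and 224 CPM in BAT Ucp1-0 nuclei, replicate 1 before 2, against 77.4, 195, 71.5 and 255 CPM in matched nuclei (edgeR log2 -0.51 ± 0.15, SE; edgeR adjusted p = 0.0802). It was lower in 4 of 4 libraries, with both replicate 2 libraries high in both groups. Fosb was lower in the remaining Ucp1-0 nuclei (log2 -1.03; edgeR adjusted p = 0.0264) but in 3 of 4 libraries only.

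Among the 27 genes that rose in the remaining nuclei, 3 at low levels are given here, chosen after their values were seen and not as a group. Itga9, an integrin subunit, stood at 5.57 and 2.00 CPM in taPVAT and 2.98 and 5.18 CPM in BAT Ucp1-0 nuclei. Its matched levels were 2.11, 1.08, 0.596 and 0.603 CPM (log2 1.86 ± 0.33, SE). With such low matched levels it met the low-count filter through its Ucp1-0 levels, so no p is given for it. Eln, elastin, stood at 14.6, 3.24, 5.96 and 29.3 CPM against 10.8, 3.08, 4.77 and 5.42 CPM (log2 1.35 ± 0.24, SE; edgeR adjusted p = 0.00391), with most of the gap in BAT replicate 2. Col8a1, a collagen of vessel walls, stood at 4.42, 0.925, 4.77 and 12.5 CPM against 2.69, 0.771, 1.79 and 2.29 CPM (log2 1.70 ± 0.28, SE; edgeR adjusted p = 0.0022). These genes are also made by mural cells and fibroblasts, and the part of such RNA was not tested.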
